A study of Mus musculus with 4 samples.

Results

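The helper T cell effector cytokines are the secreted proteins by which CD4+ T cells instruct other leukocytes, and 10 of their genes were followed here: Il2, Il3, Il4, Il5, Il13, Il17a, Il17f, Il21, Ifng and Csf2. A gene was included through every probe set that the platform annotation gives to that gene alone. This found 10 probe sets for 9 of the 10 genes, out of 18193 genes with such a probe set. Il21 had 2 probe sets, the other found genes 1 each, and no probe set of this kind was listed for Il17f, which is named only. Expression was measured in 4 CD4+ T cell populations, each on 1 Affymetrix whole-genome mouse array. The cells came from spleen and lymph node tissue of 25 males, pooled before sorting.

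The mice were B6/129 F2 animals aged 5 to 8 weeks, and all carried green fluorescent protein (GFP) knocked into Foxp3, the gene of the transcription factor that defines regulatory T (Treg) cells. GFP therefore stood for Foxp3 in the sort, and the second sort marker was CD25, a chain of the receptor for IL-2. Foxp3+ cells were split into CD25hi and CD25lo cells, and Foxp3- cells into CD25+ and CD25- cells, all from 1 pool of mice. Before the sort, cells bearing CD8, B220, CD11b, NK1.1 or DX5 were depleted with magnetic beads. The labels describe no stimulation of the cells and no treatment of the mice, and RNA went through 2 cycles of in vitro amplification. With 1 array a population no test could be made, so differences are given by their size.

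Helper T cells are grouped by the cytokines they make. Th1 cells make interferon gamma, which activates macrophages, Th2 cells make IL-4, IL-5 and IL-13, which drive allergic and anti-parasite responses, and Th17 cells make IL-17A and IL-17F, which recruit neutrophils. IL-2 is the growth factor of T cells and is needed by Treg cells, which in general make little of it, and IL-21 is made by follicular helper cells for B cells. Many of these genes are silent in resting cells and are switched on after T cell receptor signals by factors such as NFAT.

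Readings are intensities per probe set on the linear scale of the deposited values. An intensity of 32.5, the 60th percentile of all values, had to be reached for a gene to be called read, and lower values are called near background. Values under 10.1, the 40th percentile, were set to that floor before folds were taken, and a fold against a floored value is a lower bound. A reading near background does not show that the RNA was absent. Cd40lg, the helper molecule CD40 ligand, stayed between 6.96 and 14.4 in all 4 arrays. Levels of different genes are not compared, since each probe set has its own response. Where 4 readings follow each other without labels, they are those of CD25hi and CD25lo Foxp3+ cells and then of CD25+ and CD25- Foxp3- cells.

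The arrays shared a scale, with medians between 15.03 and 15.6, and between 49% and 50.4% of all genes were read in each. Foxp3 read 1308 and 1117 in the CD25hi and CD25lo Foxp3+ arrays against 16.8 and 17.6 in the CD25+ and CD25- Foxp3- arrays, as labelled. All 8 listed T cell identity genes with a probe set were read in all 4 arrays, with Cd4 between 2434 and 2948. In the CD25+ Foxp3- array, where most of the cytokines stood highest, 7 of the 8 read lower than in CD25- Foxp3- cells, by less than 2-fold each, with a median log2 difference of -0.57 over the 8. Their summed intensity was 26919 there against 39769, 44191 and 38940 in CD25hi and CD25lo Foxp3+ and in CD25- Foxp3- cells. Cd2, an adhesion receptor of T cells, read 10149, 10028, 3604 and 6847. What this has to do with the cytokine readings was not tested. In a sorted bulk sample, fewer cells that make a cytokine and less RNA in each such cell cannot be told apart.

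Most of the cytokine genes had their highest reading in CD25+ Foxp3- cells. In these cells 6 of the 9 genes were read, namely Il2, Il4, Il13, Il17a, Il21 and Ifng, against 50.4% of all genes. In CD25- Foxp3- cells 3 were read, Il4, Il21 and Ifng, against 49%. In CD25lo Foxp3+ cells 2 were read, Il21 and Ifng, against 49.5%, and in CD25hi Foxp3+ cells 1, Ifng, against 49.7%. The highest of the 4 readings lay in the CD25+ Foxp3- array, and above the floor, for 7 of the 9 genes, a place held by that array for 19.3% of all genes. None of the 9 had it in CD25hi Foxp3+, CD25lo Foxp3+ or CD25- Foxp3- cells, against 12.5%, 15.1% and 25.6% of all genes. In at least 1 array 6 of the 9 were read, against 52.8%. Of the 3 that were not read in any array, Csf2 was above the floor in CD25+ Foxp3- cells, and Il3 and Il5 were under it in all 4 arrays.

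**Figure D1:**
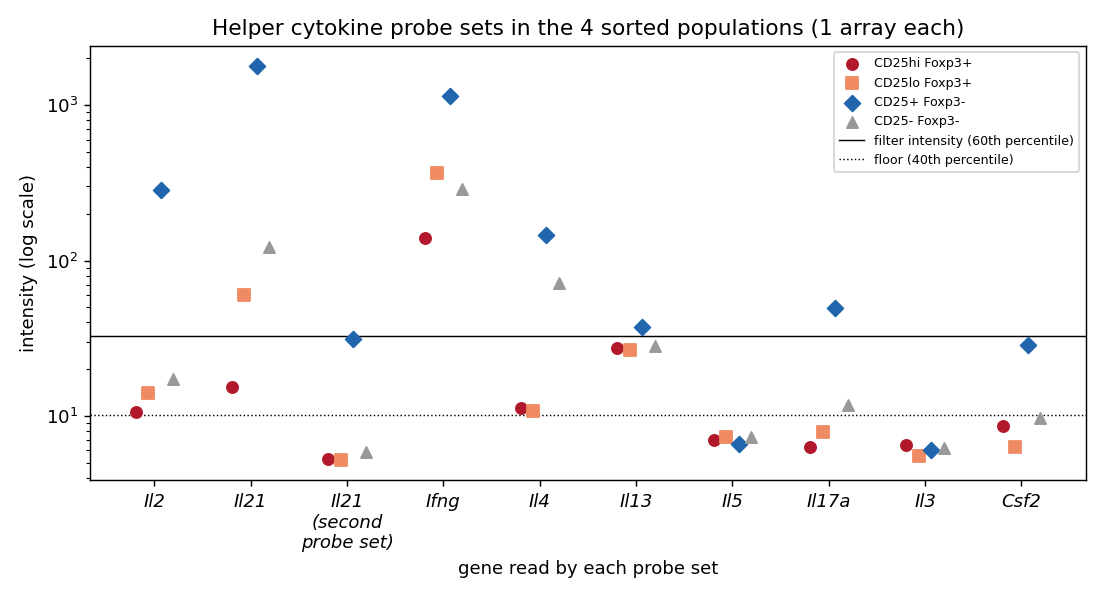
Intensity (log scale) of each helper cytokine probe set in the 4 sorted populations, 1 point per array, with the filter intensity as a solid line and the floor as a dotted line. The CD25+ Foxp3- diamonds stand highest for Il2, Il21, Ifng, Il4, Il13, Il17a and Csf2, while Il5 and Il3 lie under the floor in every array.

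IL-2 and IL-21 are related four-helix cytokines that signal through receptors sharing the common gamma chain, and their genes stand side by side on chromosome 3. Il2 read 10.7 in CD25hi Foxp3+, 14.1 in CD25lo Foxp3+, 286 in CD25+ Foxp3- cells and 17.3 in the CD25- Foxp3- population. It was thus read in CD25+ Foxp3- cells and near background in the other three populations, whose order has no meaning at that level. Its reading in CD25+ Foxp3- cells was 16.5-fold that in CD25- Foxp3- cells, 26.9-fold that in CD25hi Foxp3+ cells and 20.3-fold that in CD25lo Foxp3+ cells. Since the low readings are near background, these sizes are uncertain, and against the filter intensity itself the reading was 8.82-fold higher.

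Il21 read 15.3 in CD25hi Foxp3+, 59.8 in CD25lo Foxp3+, 1794 in CD25+ Foxp3- cells and 122 in the CD25- Foxp3- population. It was read in all populations but CD25hi Foxp3+ cells, and neighbours in the order CD25+ Foxp3-, CD25- Foxp3-, CD25lo Foxp3+, CD25hi Foxp3+ lay at least 2-fold apart. CD25+ Foxp3- cells exceeded CD25- Foxp3- cells 14.7-fold and CD25hi Foxp3+ cells 118-fold, or 55.3-fold against the filter intensity. Against them CD25lo Foxp3+ cells had a log2 difference of -4.91. The second Il21 probe set read 5.30, 5.18, 31.1 and 5.89, from CD25hi Foxp3+ to CD25- Foxp3- cells. It stood highest in the same array but did not reach the filter intensity there, so on it alone no Il21 fold would be given. With both probe sets averaged on the log scale, the log2 difference between the CD25+ and CD25- Foxp3- arrays was 3.14 in place of 3.88. From the CD25+ Foxp3- array, that of CD25hi Foxp3+ cells was then -4.55 in place of -6.88 and that of CD25lo Foxp3+ cells -3.75 in place of -4.91.

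Among 9402 genes read in either Foxp3- population, Il2 ranked 17 and Il21 ranked 23 by the fold between them. No coding gene lies between Il2 and Il21 in the RefSeq gene table. The nearest gene with a probe set on the other side of Il2, Adad1, has 3 genes between it and Il2 and stayed under the floor in all 4 arrays, at 4.91 to 6.08. The nearest past Il21, the centrin gene Cetn4, with 1 gene between, read 32.8, 36.5, 103 and 37.9 and was 2.71-fold higher in the CD25+ than the CD25- Foxp3- array. Of the 4 genes, the 3 that were read thus had their highest reading in CD25+ Foxp3- cells.

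The promoters of Il2 and Il21 are shown because this adjacent pair had the largest folds among the cytokines. Each window holds the 250 bases before the gene's start, 5′ to 3′ on the gene's strand, from RefSeq on build GRCm38.p6. Il2 is at chr3:37125955-37126204 and Il21 at chr3:37232637-37232886, both on the minus strand. Capitals mark GGAAA, the core bound by NFAT, on either strand (TTTCC where it lies on the opposite strand).
Il2: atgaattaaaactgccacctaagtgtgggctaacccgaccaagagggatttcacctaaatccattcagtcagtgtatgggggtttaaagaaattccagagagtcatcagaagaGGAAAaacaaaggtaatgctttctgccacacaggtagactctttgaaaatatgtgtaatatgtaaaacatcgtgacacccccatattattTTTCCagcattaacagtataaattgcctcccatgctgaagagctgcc
Il21: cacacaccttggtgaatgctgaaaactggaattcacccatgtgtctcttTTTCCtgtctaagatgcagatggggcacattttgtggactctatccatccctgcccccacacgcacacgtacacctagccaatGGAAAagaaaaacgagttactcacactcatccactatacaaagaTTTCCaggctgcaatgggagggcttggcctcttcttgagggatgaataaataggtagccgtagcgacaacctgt
The Il2 window holds 2 copies and the Il21 window 3. Of 32851 promoter windows of this length in the same table, 55.6% hold at least 1 copy, 21.4% at least 2 and 6.39% at least 3. A match is a description of the letters and not a bound site.

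Ifng, the gene of interferon gamma, was read in all 4 arrays. Its readings were 140 in CD25hi Foxp3+, 366 in CD25lo Foxp3+, 1146 in CD25+ Foxp3- cells and 288 in the CD25- Foxp3- population. CD25+ Foxp3- cells stood 3.97-fold above CD25- Foxp3- cells, 3.13-fold above CD25lo Foxp3+ cells and 8.21-fold above CD25hi Foxp3+ cells. The middle pair, CD25lo Foxp3+ and CD25- Foxp3- cells, differed 1.27-fold, which is under either size rule. The Foxp3+ and Foxp3- readings of Ifng overlapped, because the CD25lo Foxp3+ reading exceeded that of CD25- Foxp3- cells by this small step. Within the Foxp3+ cells, CD25lo cells read 2.62-fold above CD25hi cells.

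Il4, the gene of the Th2 cytokine that turns B cells to IgE and IgG1, read 11.2 in CD25hi Foxp3+, 10.8 in CD25lo Foxp3+, 145 in CD25+ Foxp3- cells and 72.0 in the CD25- Foxp3- population. It was read in both Foxp3- populations and near background in both Foxp3+ populations, and the groups did not overlap. The lower Foxp3- reading was 6.43-fold the higher Foxp3+ reading and 2.22-fold the filter intensity. CD25+ exceeded CD25- Foxp3- cells 2.02-fold, at the edge of the 2-fold rule. With quantile normalization the log2 difference was 0.99, under the rule.

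The promoters of Il4 and Ifng are shown because Foxp3+ and Foxp3- readings were apart for Il4 and overlapped for Ifng. The Ifng overlap rests on a difference under either size rule. The windows are built as above, with GGAAA on either strand in capitals. Il4 is at chr11:53618666-53618915 on the minus strand, the outer of its 2 listed starts, and Ifng at chr10:118440796-118441045 on the plus strand.
Il4: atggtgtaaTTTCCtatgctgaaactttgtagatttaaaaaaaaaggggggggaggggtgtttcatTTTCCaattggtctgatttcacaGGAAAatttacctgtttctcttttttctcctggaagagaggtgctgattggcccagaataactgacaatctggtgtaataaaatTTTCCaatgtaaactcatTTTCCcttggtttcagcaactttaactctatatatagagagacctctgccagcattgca
Ifng: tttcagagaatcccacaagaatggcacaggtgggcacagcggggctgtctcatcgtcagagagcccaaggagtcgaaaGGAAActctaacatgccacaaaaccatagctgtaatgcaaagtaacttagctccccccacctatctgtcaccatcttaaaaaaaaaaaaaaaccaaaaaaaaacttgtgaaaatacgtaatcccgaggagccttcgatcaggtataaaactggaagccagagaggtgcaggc
The Il4 window holds 5 copies and the Ifng window 1, and the window of the inner Il4 start holds none. Over the 11 windows listed for the 10 genes, 9 hold at least 1 copy, beside 55.6% of all windows.

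The other Th2 cytokine genes gave less. Il13, which drives mucus and eosinophil responses, read 27.4 in CD25hi Foxp3+, 26.5 in CD25lo Foxp3+, 37.3 in CD25+ Foxp3- cells and 28.2 in the CD25- Foxp3- population. It passed the filter intensity in CD25+ Foxp3- cells by 1.15-fold, and no 2 arrays differed by more than 1.41-fold. Il5, the eosinophil growth factor gene, lay between 6.64 and 7.34 in all 4 arrays, under the floor. Of the 3 Th2 genes, Il4 passed the 2-fold rule between CD25+ and CD25- Foxp3- cells.

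Il17a, the signature gene of Th17 cells, read 6.30 in CD25hi Foxp3+, 7.88 in CD25lo Foxp3+, 49.6 in CD25+ Foxp3- cells and 11.7 in the CD25- Foxp3- population. It was read in CD25+ Foxp3- cells, near background in CD25- Foxp3- cells and under the floor in both Foxp3+ populations. The reading in CD25+ Foxp3- cells was 4.22-fold that in CD25- Foxp3- cells and at least 4.90-fold that in each Foxp3+ population, but 1.53-fold the filter intensity. The log2 difference of CD25hi Foxp3+ cells from CD25+ Foxp3- cells was -2.29 with the floor and -2.98 without it. Il17f, its adjacent paralog, was not read here for want of a listed probe set. Mcm3, the next gene past Il17f, read 2365, 1798, 5909 and 1132, 5.22-fold higher in the CD25+ than the CD25- Foxp3- array. Mir133b, on the other side of Il17a, was under the floor in every array.

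Il3 and Csf2 encode growth factors of myeloid cells, IL-3 and GM-CSF, which activated T cells release. Il3 lay between 5.56 and 6.47 in all 4 arrays, under the floor. Csf2 read 8.63 in CD25hi Foxp3+, 6.29 in CD25lo Foxp3+, 28.8 in CD25+ Foxp3- cells and 9.66 in the CD25- Foxp3- population. It stood highest in CD25+ Foxp3- cells and was under the floor in the other three populations, yet it did not reach the filter intensity, so no fold is given.

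The first comparison asks how the cytokine genes differ by CD25 among Foxp3- cells. Going from CD25- to CD25+ Foxp3- cells, 5 of the 9 genes stood at least 2-fold higher, Il2, Il4, Il17a, Il21 and Ifng, and none was lower. Over all genes 6.24% were higher and 3.39% lower by the same rule. The median log2 difference of the 9 genes, floored readings included, was 1.51, beside 0 over all 18193 genes. This median is the value of Csf2, which was not read in any array, so its size is uncertain. The same 5 genes were higher by 2-fold or more in the CD25+ Foxp3- array than in each other array, against 1.7% of all genes. None of the 9 held that place in CD25hi Foxp3+, CD25lo Foxp3+ or CD25- Foxp3- cells, against 0.308%, 0.555% and 0.808%.

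The Foxp3+ populations were set against the same CD25+ Foxp3- array. CD25hi Foxp3+ cells were at least 2-fold lower for 5 of the 9 genes, Il2, Il4, Il17a, Il21 and Ifng, and higher for none, against 3.54% lower and 2.51% higher of all genes. CD25lo Foxp3+ cells were lower for the same 5 and higher for none, against 4.71% and 2.73%. The medians of the 9 log2 differences were -2.29 and -1.65. The first is the value of Il17a against a floored reading, and the second that of Ifng. These comparisons share the CD25+ Foxp3- array, so 1 high array enters all of them.

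Against CD25- Foxp3- cells, both Foxp3+ populations had few cytokine genes to lose. CD25hi Foxp3+ cells were at least 2-fold lower for Il4, Il21 and Ifng, 3 of the 9, against 1.91% of all genes, and higher for none, against 3.59%. CD25lo Foxp3+ cells were lower for Il4 and Il21, 2 of the 9, against 3.57%, and higher for none, against 4.74%. The medians were -0.22 and -0.09, close to 0, since most of the genes were near background in each of these arrays. The step of Il21 between CD25lo Foxp3+ and CD25- Foxp3- cells was 2.04-fold and that of Ifng between CD25hi Foxp3+ and CD25- Foxp3- cells 2.07-fold, both near the rule.

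Between the Foxp3+ populations, CD25hi cells were at least 2-fold lower than CD25lo cells for Il21 and Ifng, 2 of the 9, against 1.31% of all genes. None was higher, against 1.66%. The Il21 step of 3.92-fold starts from a CD25hi reading near background and is 1.84-fold against the filter intensity. By the 1.5-fold gap rule, which sets the lower Foxp3- reading against the higher Foxp3+ reading or the reverse, Il4 and Il21 were higher in both Foxp3- arrays, 2 of the 9, against 0.89% of all genes. None was higher in both Foxp3+ arrays, against 1.4%. The Il21 gap was 2.04-fold.

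**Figure D2:**
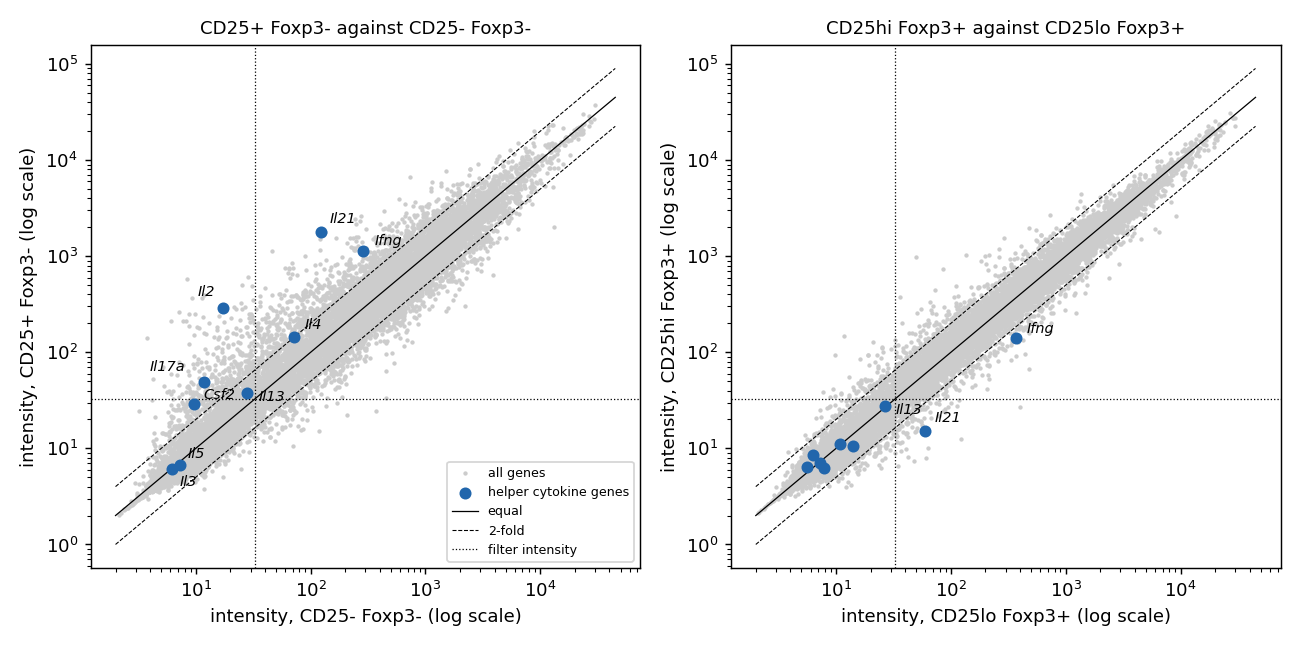
Intensity of every gene (grey, log scales) with the helper cytokine genes in blue, for CD25+ against CD25- Foxp3- cells (left) and CD25hi against CD25lo Foxp3+ cells (right, 3 genes named). On the left Il2, Il21, Ifng and Il17a lie above the 2-fold line and Il4 on it, while on the right Ifng and Il21 lie below the lower 2-fold line and the others are near background.

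Other T cell cytokine genes followed the CD25+ Foxp3- array less uniformly. Of 18 with a probe set, 12 were read in at least 1 array, against 52.8% of all genes. By the 2-fold rule, 7 were higher in the CD25+ than the CD25- Foxp3- array and none lower, against 6.24% and 3.39% of all genes. The 7 were Il10, Lta, Tnfsf11, Xcl1, Ccl1, Tgfb1 and Ebi3, and the median log2 difference of the 18 was 0.17. At least 2-fold above each other array in CD25+ Foxp3- cells were 2 of the 18, against 1.7% of all genes. These 2 were Xcl1 and Ccl1, both chemokine genes of activated T cells. Ccl1 read 12.8, 14.3, 185 and 15.2, so it too was read in 1 population. Tnf was nearly level, between 87.1 and 120.3.

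Il10, the gene of a cytokine that restrains immune responses, read 207, 395, 44.1 and 8.55. Its CD25- Foxp3- reading was under the floor, so it was at least 4.36-fold higher in the CD25+ than the CD25- Foxp3- array. Yet it was the 1 of the 18 higher in both Foxp3+ arrays by the gap rule, against 1.4% of all genes. Fasl, the death ligand, was the 1 lower in both Foxp3+ arrays, at 53.8 and 77.5 against 514 and 461. Over all genes 0.89% were lower by the gap rule. Tnfsf11, which encodes RANKL, read 525, 1184, 1909 and 304, high in CD25+ Foxp3- and CD25lo Foxp3+ cells.

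Transcription factors that direct these cytokines had their highest readings in different populations. Of 15 lineage factor genes with a probe set, 7 were at least 2-fold higher in the CD25+ than the CD25- Foxp3- array and none was lower. Over all genes 6.24% were higher and 3.39% lower by the same rule. The 7 were Tbx21, Eomes, Maf, Nfil3, Rora, Ahr and Irf4, with a median log2 difference of 0.65 over the 15. Tbx21 (T-bet), which drives Ifng in Th1 cells, read 20.5 in CD25hi Foxp3+, 67.6 in CD25lo Foxp3+, 227 in CD25+ Foxp3- cells and 20.2 in the CD25- Foxp3- population. Eomes, its relative in cytotoxic and memory cells, read 50.01, 35.8, 411 and 106. Both were at least 2-fold higher in CD25+ Foxp3- cells than in each other array, as were Ifng and 1.7% of all genes.

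The Th2 factor gene Gata3 had its highest reading in CD25lo Foxp3+ cells. It read 760, 966, 566 and 425.5, above both Foxp3- readings in both Foxp3+ populations (by less than the 1.5-fold rule), where Il4 was near background. Maf, which acts on Il4 and Il21, read 1942, 6040, 3904 and 585, highest in CD25lo Foxp3+ cells, where Il21 read far below CD25+ Foxp3- cells. Rora, a Th17 factor, read 574, 1279, 589 and 195, also highest in CD25lo Foxp3+ cells, where Il17a was under the floor. Irf4 read 912, 900.1, 1579 and 250.

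**Figure D3:**
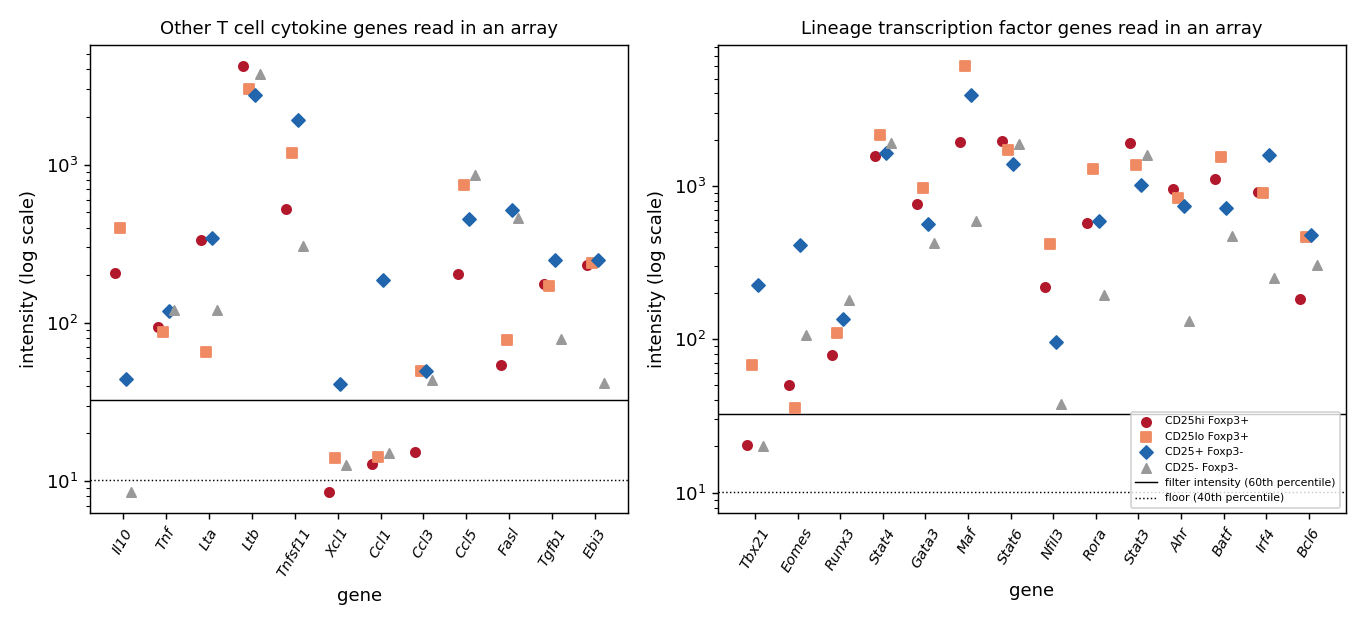
Intensity (log scale) of the other T cell cytokine genes (left) and lineage transcription factor genes (right) that were read in at least 1 array, 1 point per population, with filter intensity and floor as lines. Ccl1, Tbx21 and Eomes have their highest point in CD25+ Foxp3- cells, whereas Il10, Maf, Rora and Gata3 have it in CD25lo Foxp3+ cells.

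Genes of T cell activation did not divide the populations as the cytokines did. All 18 such genes were read in all 4 arrays. By 2-fold or more, 4 were higher in the CD25+ than the CD25- Foxp3- array, against 6.24% of all genes. The 4 were Egr2, Rel, Tnfrsf9 and Icos. The same 4 were at least 2-fold higher in each Foxp3+ population than in CD25- Foxp3- cells, a comparison that shares the low array. Over all genes 3.59% were so in CD25hi and 4.74% in CD25lo Foxp3+ cells. Between CD25hi Foxp3+ and CD25+ Foxp3- cells 1 of the 18 differed by 2-fold, Tnfrsf9 (4-1BB), which was higher in the Foxp3+ cells. Over all genes 2.51% were higher in CD25hi Foxp3+ cells by this rule and 3.54% lower. Rel, an NF-kappaB subunit needed for Il2, read 109, 130.1, 138 and 47.4. Nfatc1 and Nfatc2, which encode NFAT factors, spanned 1171 to 1719.5 and 577 to 966 over the 4 arrays.

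Of 14 genes for the receptors of these cytokines, 6 were read in all 4 arrays. Il2ra and Il2rb, chains of the IL-2 receptor, were higher by 2-fold or more in the CD25+ than the CD25- Foxp3- array. Il4ra, Ifngr1, Ifngr2 and Csf2rb were at least 2-fold lower. Over all genes 6.24% were higher and 3.39% lower by this rule. Il2ra read 1562, 288, 283 and 22.3 and encodes the sort marker itself. The CD25lo Foxp3+ and CD25+ Foxp3- readings of Il2ra were nearly equal on this probe set, while those of Il2 were 14.1 and 286. A second Il2ra probe set read 417, 84.2, 114 and 9.56, higher in CD25+ Foxp3- than in CD25lo Foxp3+ cells. Ifngr1, the ligand-binding chain of the interferon gamma receptor, read 792, 1203, 267 and 834, lowest in CD25+ Foxp3- cells. Il21r spanned 344 to 564.

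The chromosome 11 cytokine cluster holds Il4, Il13, Il5, Csf2 and Il3 in this order, among 7 other coding genes. Rad50, the DNA repair gene between Il13 and Il5, spanned 369 to 510, and Il4 and Il13 beside it behaved as given above. Irf1, an interferon response factor next to Il5, read 4902, 4657, 2342 and 5084, lowest in CD25+ Foxp3- cells. Pdlim4, chosen after its values were seen, read 6.48, 6.22, 33.8 and 455 and was 13.5-fold lower in CD25+ Foxp3- than in CD25- Foxp3- cells. Genes of 1 cluster thus had their highest reading in different populations.

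**Figure D4:**
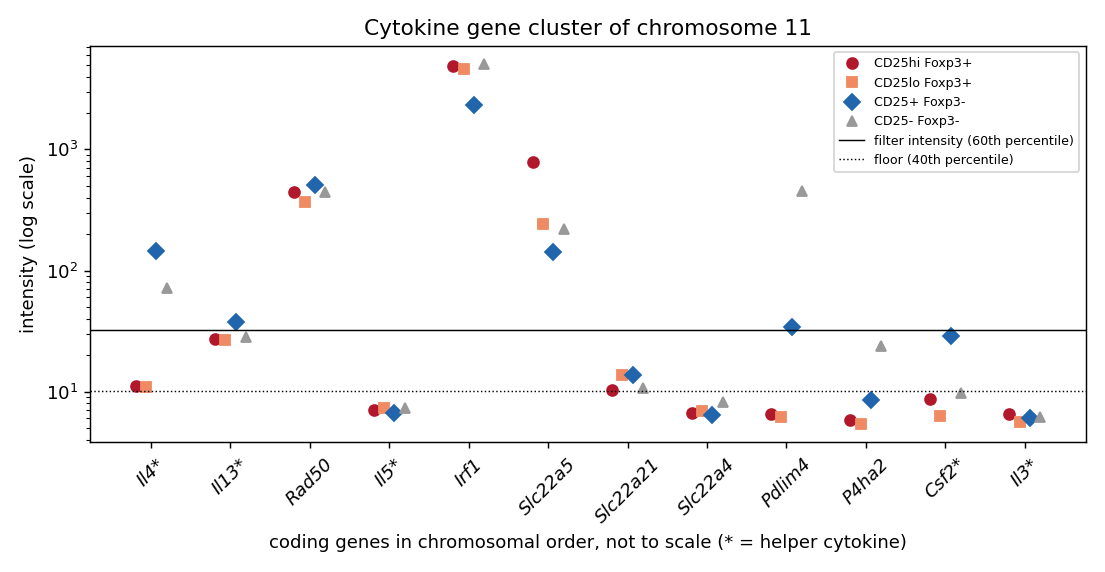
Intensity (log scale) of the coding genes with a probe set from Il4 to Il3 on chromosome 11, in chromosomal order and not to scale, 1 point per population, helper cytokines marked with an asterisk. Il4 peaks in CD25+ Foxp3- cells, Pdlim4 in CD25- Foxp3- cells and Slc22a5 in CD25hi Foxp3+ cells, and Il5 and Il3 stay under the floor.

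Likeness of pattern was measured as the Euclidean distance between log2 readings, each gene centred on its own mean over the 4 arrays, among 9615 genes read in at least 1 array. With 4 points per gene many genes lie close, so the nearest are a description. Nearest to Il2 were Mapk10, Bmp2 and Fcer1g, at distances of 0.32 to 0.46. Il2 was near background in all arrays but CD25+ Foxp3-, and Mapk10 and Bmp2 were under the floor in both Foxp3+ arrays. Fcer1g, a signalling chain of Fc and innate receptors, read 15.5, 21.9, 294 and 21.5. Nearest to Ifng were Car2, Il18rap and Gpm6b, at 0.30 to 0.47, and Il18rap, a chain of the IL-18 receptor, read 40.2, 119, 248 and 84.1. Nearest to Il4 were Crtam, St6galnac2 and Ctla2a, at 0.49 to 0.74.

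Il21 had no close counterpart by this distance, which also counts the size of a gene's differences between arrays. Its nearest genes, the chemokine receptor gene Cxcr6, Tmem176a and the granzyme gene Gzmk, lay at 1.43 to 1.81, and Cxcr6 read 73.5, 128, 2148 and 249. Il17a was nearest to Cd160, Pdzrn3 and Shtn1, at 0.15 to 0.20, with floored values in its pattern. Il13 was nearest to Dnttip2, Zfp74 and Rcan1, at 0.03 to 0.04, distances that are small because its pattern was almost flat.

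Markers of other cells that can make these cytokines moved with some of the results. A summed intensity of such a list adds probe sets of unlike response and is led by the brightest, so it is set only against the same sum in another array. For gamma delta T and NKT cells 10 markers were listed, but Trgc1, Tcrg-C1, Trdc, Scart2 and Il23r had no single-gene probe set. Of the 5 others, 4 were read in CD25+ Foxp3- cells, against 50.4% of all genes. The summed intensity of the 5 was 117, 204, 2341 and 329. Cxcr6 alone gave 73.5, 128, 2148 and 249 of these sums. By gene, Zbtb16, Blk and Cxcr6 were at least 2-fold above each other array in CD25+ Foxp3- cells, against 1.7% of all genes. Zbtb16, the factor PLZF of NKT cells, read 4.45, 6.26, 82.2 and 17.1, and Sox13 was under the floor in all 4 arrays. For innate lymphoid cells the sums were 3946, 6290, 13051 and 4677. In CD25+ Foxp3- cells 5 of 9 markers were at least 2-fold above each other array, against 1.7% of all genes. These 5 were Il17rb, Ncr1, Kit, Il18r1 and Id2. Id2, an inhibitor of E proteins, alone read 9203 of the 13051, against 970.4 and 1589 in CD25hi and CD25lo Foxp3+ and 2858 in CD25- Foxp3- cells. Klrg1 was higher in both Foxp3+ arrays, at 1085 and 2429 against 79.1 and 68.4. Several of these are also expressed by T cells. Their part in the cytokine readings was not tested.

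For mast cells and basophils, which make Il4 and Il13, 9 of 11 markers were not read in any array. Over all genes 52.8% were read in at least 1 array. Among the 9 markers were the IgE receptor genes Fcer1a and Ms4a2 and the protease gene Mcpt8. The sums were 94.1, 130.01, 523 and 185. Kit read 399 in CD25+ Foxp3- cells and no more than 11.7 elsewhere. The protease gene Cpa3 was read in CD25- Foxp3- cells. For CD8 T and NK cells the sums were 1015, 1109, 2290 and 2510.5. By the gap rule 6 of 13 markers were higher in both Foxp3- arrays, as Il4 and Il21 were, against 0.89% of all genes. These 6 were Cd8a, Cd8b1, Klrd1, Gzma, Nkg7 and Eomes. Gzmb went the other way, at 323 and 422 in the Foxp3+ against 96.4 and 46.6 in the Foxp3- arrays. Of the markers read, Eomes, Nkg7, Ncr1 and Klrk1 had their highest reading in CD25+ Foxp3- cells, and Cd8a, Cd8b1, Klrd1, Prf1 and Gzma in CD25- Foxp3- cells. Their part was not tested.

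The B cell sums were 1319, 1999.5, 6241 and 2870. Cd74, H2-Ab1, H2-Aa and H2-Eb1, all of MHC class II antigen presentation, had their highest readings in CD25+ Foxp3- cells, with Cd74 at 894, 1106, 2806 and 681. Ms4a1, which encodes CD20, read 15.9, 24.7, 66.7 and 145 and was thus read in both Foxp3- arrays. Cd79b was read in all 4 arrays, between 58.4 and 118, while Cd79a, Pax5, Blnk and Ebf1 were not read in any.

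Myeloid and dendritic sums were 1208, 1494, 1623 and 1808, of which Cst3 alone gave 755 to 944. Fcer1g was 13.7-fold and Adgre1 2.15-fold higher in the CD25+ than the CD25- Foxp3- array, and Csf1r, Lyz2 and S100a8 were at least 2-fold lower. Tyrobp and S100a9 were higher in both Foxp3- arrays. Itgam, Cd14 and Siglech were under the floor in all 4. The part of B cell and myeloid markers in the cytokine readings was not tested.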

How the data were processed

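Each of 4 sorted populations was read on 1 array, grouped by sample title. The deposited file holds 1 linear intensity for each probe set, judged from the range of its values. Per the labels, RNA was amplified in 2 cycles. The summarisation and normalization steps: not given in the sources used here. Array scale was kept as deposited and log2 taken. Of 45037 probe sets without 64 controls, 34945 had 1 gene in the platform annotation, 932 several and 9160 none listed. By Entrez identifier 34741 of those with 1 gene matched the RefSeq table of GRCm38.p6, which was used for names and gene order. A gene was read from its probe set with the highest mean log2 intensity. Floor and filter were the 40th and 60th percentiles of all values. The members, gene lists and size rules were chosen with earlier results of these data known. The naming rule took all members, listed genes past a size rule (up to 4 by size) and the 3 nearest genes by pattern for each member. It also took sort genes and chromosomal neighbours, of which some, among them those of Ifng, are left out above. Other genes, among them Cd40lg, Tnf, Rel, Gata3, Il21r and the marker genes, were chosen after their values were seen. Other floors, filters, probe set choices, scalings and size rules were tried as alternatives. Rules were tested on simulated data (Python 3.11.15, numpy 2.4.6, pandas 2.3.3). The probe sets changed in that simulation stood well above the filter intensity, so changes near background were not covered. The number of arrays limits precision.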

Additional observations from a re-analysis of the deposited data

Results flagged for a closer look

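The difference by CD25 ran in opposite directions in Foxp3- and Foxp3+ cells for Il21 and Ifng. For Il21 the log2 difference was 3.88 between CD25+ and CD25- Foxp3- cells and -1.97 between CD25hi and CD25lo Foxp3+ cells, 5.85 apart. The CD25hi Foxp3+ reading in it, 15.3, was near background. The second Il21 probe set was under the floor in both Foxp3+ arrays, at 5.30 and 5.18, and gave no direction there. For Ifng the differences were 1.99 and -1.39, which are 3.38 apart. CD25 was split at other levels in the Foxp3+ cells than in the Foxp3- cells, and with 1 array a population the difference was not tested.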

How the results depend on the processing

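There were 10 alternatives and 22 counts of cytokine genes, and 18 recomputed counts moved by over 1.5 times and 198 did not. With the filter at the 50th percentile, 2 genes in place of 1 were read in CD25hi Foxp3+ and 5 in place of 3 in CD25- Foxp3- cells. With it at the 70th percentile, with the geometric mean of probe sets and with the lowest probe set, 1 gene in place of 2 was read in CD25lo Foxp3+ cells. Under the same 3 settings 1 in place of 2 was lower in CD25lo Foxp3+ than in CD25- Foxp3- cells, lower in CD25hi than in CD25lo Foxp3+ cells, and higher in both Foxp3- arrays. Quantile normalization, scaling to the 75th percentile and the 3-fold rule also left 1 in place of 2 lower in CD25lo Foxp3+ than in CD25- Foxp3- cells. The 3-fold rule left 1 in place of 2 lower in CD25hi than in CD25lo Foxp3+ cells. The genes higher in the CD25+ than the CD25- Foxp3- array numbered 4 to 6: Csf2 joined at the lower filter, Il17a was lost at the higher, Il21 with the lowest probe set, and Il4 under both scalings and the 3-fold rule. Of the recomputed log2 differences 6 moved by over 1.5-fold and 210 did not, 3 of Il17a with the floor and 3 of Il21 with probe sets averaged, and no sign turned. No paired analysis was possible because each population was read on 1 array.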

Other observations

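A further probe set is annotated to both Il2 and Ntan1, a gene of protein turnover, and was left out because it names 2 genes. It read 942 in CD25hi Foxp3+, 908 in CD25lo Foxp3+, 575 in CD25+ Foxp3- cells and 1122 in the CD25- Foxp3- population. It was thus lowest in the population where the single-gene Il2 probe set was highest.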
